A study of Rattus norvegicus with 9 samples.

Results

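Fatty acid oxidation and the hydrolysis of acyl-CoA thioesters were followed in rat prostate through 41 genes. These were 4 genes of the carnitine shuttle, 8 acyl-CoA dehydrogenases and electron transfer proteins, 5 enzymes of mitochondrial hydration, dehydrogenation and thiolysis, 3 auxiliary enzymes for unsaturated fatty acids, 5 peroxisomal enzymes, 2 transcriptional regulators, 6 acyl-CoA thioesterases, 3 medium-chain acyl-CoA synthetases and 5 genes of fuel switching, ketone bodies, fatty acid binding and uncoupling. A gene was taken by name, through the RefSeq accession that the array files give for its probe, and not by its level. All 41 genes had a probe, 46 probes in all, among 15163 gene symbols that could be matched on the array. Of the 41 genes, 31 were well above background on all 9 arrays, 35 were bright enough to be tested in at least 1 comparison, and 32 were tested in all 3.

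Gene expression was measured in prostates of male Sprague Dawley rats, bought at an age of 6 weeks, with 9 single-colour arrays, 3 per group. Sham rats had a sham operation, injections of corn oil and oral water. BPH rats were castrated, received dihydrotestosterone (3 mg/kg per day, subcutaneously, for 4 weeks) to enlarge the prostate, and received oral vehicle without ghrelin. BPH+ghrelin rats had the same castration and dihydrotestosterone, and received oral ghrelin, a stomach hormone that binds the growth hormone secretagogue receptor, at 20 nmol/kg per day for the last 2 weeks. Castration and dihydrotestosterone are thus shared by BPH and BPH+ghrelin, and no group received ghrelin without them.

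Long-chain fatty acids enter the mitochondrion as carnitine esters and are then shortened in a repeated cycle of dehydrogenation, hydration, second dehydrogenation and thiolysis, which yields acetyl-CoA and reduced electron carriers. Peroxisomes run a parallel cycle for substrates that mitochondria handle poorly, and acyl-CoA thioesterases oppose both by releasing the free fatty acid. The prostate is better known for making and secreting citrate than for burning fat, so that its use of fatty acids is of interest where the gland grows.

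The promoters of the 5 members whose signal passed the adjusted test in any comparison are shown first, as the sequence beside which their levels can be read. RefSeq promoter windows of rat assembly GRCr8, from 250 bases before to 50 bases after the annotated start, were found for 37 of the 41 genes, and none was found for Acaa2, Acadl, Cpt1b and Decr1. Hadhb and Hadha, which encode both subunits of the mitochondrial trifunctional protein, lie head to head on chromosome 6, and their windows share 200 bases. The windows printed are those of Hadhb (chr6:31907451-31907750, minus strand), Acot1 (chr6:109367024-109367323, plus strand), Them5 (chr2:184669572-184669871, plus strand), Acsm4 (chr1:183485009-183485308, plus strand) and Acads (chr12:47154083-47154382, plus strand), each from 5′ to 3′ on the strand of the gene. Capitals mark matches on either strand to a GC box, a CCAAT box or a nuclear receptor site, 3 motifs common in promoters.
Hadhb: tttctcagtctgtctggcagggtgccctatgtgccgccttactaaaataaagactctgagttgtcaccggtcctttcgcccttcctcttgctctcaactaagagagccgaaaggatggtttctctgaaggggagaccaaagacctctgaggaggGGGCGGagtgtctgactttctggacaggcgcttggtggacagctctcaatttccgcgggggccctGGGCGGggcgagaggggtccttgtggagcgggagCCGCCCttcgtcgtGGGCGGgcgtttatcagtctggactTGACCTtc
Acot1: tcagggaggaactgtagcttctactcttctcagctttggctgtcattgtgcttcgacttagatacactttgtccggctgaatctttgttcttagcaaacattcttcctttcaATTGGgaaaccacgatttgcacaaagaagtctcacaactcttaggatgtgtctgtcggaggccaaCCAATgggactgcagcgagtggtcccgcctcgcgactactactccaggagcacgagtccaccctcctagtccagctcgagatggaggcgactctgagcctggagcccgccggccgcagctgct
Them5: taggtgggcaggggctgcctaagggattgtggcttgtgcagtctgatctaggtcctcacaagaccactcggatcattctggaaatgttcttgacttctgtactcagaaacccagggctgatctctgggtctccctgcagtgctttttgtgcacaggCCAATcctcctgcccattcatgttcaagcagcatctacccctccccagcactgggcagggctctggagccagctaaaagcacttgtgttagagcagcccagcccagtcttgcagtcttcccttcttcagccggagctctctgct
Acsm4: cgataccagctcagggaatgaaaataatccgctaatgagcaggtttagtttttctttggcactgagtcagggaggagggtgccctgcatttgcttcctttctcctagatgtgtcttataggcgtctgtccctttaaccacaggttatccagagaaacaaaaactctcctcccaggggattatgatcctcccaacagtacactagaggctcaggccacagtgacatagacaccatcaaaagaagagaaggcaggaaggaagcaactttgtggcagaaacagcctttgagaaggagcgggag
Acads: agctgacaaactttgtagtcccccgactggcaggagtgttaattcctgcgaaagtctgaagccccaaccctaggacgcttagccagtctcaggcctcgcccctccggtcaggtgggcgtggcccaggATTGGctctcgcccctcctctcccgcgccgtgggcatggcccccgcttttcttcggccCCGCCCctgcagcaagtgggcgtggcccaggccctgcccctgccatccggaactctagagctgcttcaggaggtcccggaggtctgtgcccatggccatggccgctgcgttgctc

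A GC box (GGGCGG, read on both strands) was found in 23 of the 37 promoters (62.2%), compared to 33.1% of all 33469 rat promoters of this length and 41.8% of the 21851 protein-coding ones. The median content of G and C was 60% in the member promoters and 55% in the protein-coding ones, and its part in this share was not tested. The nuclear receptor site, searched as AGGTCA on both strands, was found in 10 (27.0%), compared to 16.2% and 14.2%. A CCAAT box, searched by the letters of its name on both strands, was found in 14 (37.8%), compared to 37.5% and 38.0%. A direct repeat of the nuclear receptor site with a spacing of 1 base (which contains the single site, on either strand) was found in 0 of the 37, and in 0.0538% of all promoters. The Hadhb window holds 4 GC boxes and 1 nuclear receptor site, the Acot1 window 2 CCAAT boxes, the Them5 window 1 CCAAT box, the Acads window 1 GC box and 1 CCAAT box, and the Acsm4 window none of the 4 motifs. These are matches of letters only.

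Signals were read as log2 values after quantile normalization over the 9 arrays, and a difference of 1 on this scale is a 2-fold difference. Sham replicate 2 was the dimmest array, where 61.4% of probes exceeded the background limit, against 69.5% to 75% elsewhere. The members often took a middle value on the same array of a group. This was so on sham replicate 3 for 82.9%, BPH replicate 2 for 82.9% and BPH+ghrelin replicate 2 for 88.6% of 35 members, compared to 65.1%, 61.7% and 60.6% of all probes. The tests treat the 3 arrays of a group as independent. Without these 3 arrays, the differences kept their sign for every gene that passed the adjusted threshold, but 0 members and 0 other genes of the pathway passed the adjusted threshold in any comparison (limma), while 2, 2 and 3 members had an unadjusted p under 0.05. Of all genes, 0, 3 and 2 then passed. Leaving out the middle array keeps the outer 2 of a group, which widens the spread at most probes by construction. With fewer arrays as well, this loss of calls was largely built in and does not test them. The file headers give a scan time, shared by the BPH arrays and BPH+ghrelin replicate 1 (scan 1) and by BPH+ghrelin replicates 2 and 3 with sham replicates 1 and 2 (scan 2), and sham replicate 3 was alone, so that BPH and sham shared no scan and could be compared with scan as a block only by way of the BPH+ghrelin arrays.

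The tissue carried the markers of rat prostate epithelium, with 9 of 9 measured markers well above background on every array, but their summed log2 signal was 17.69 to 17.72 in sham, 15.95 to 16.71 in BPH and 16.14 to 16.37 in BPH+ghrelin. The lower sums went with secretory genes such as Msmb (15.99 to 16.22 in sham, 4.79 to 12.81 in BPH and 3.45 to 8.41 in BPH+ghrelin), while the epithelial keratin Krt8 was higher in both treated groups (11.23 or more, against 10.74 or less in sham) and the adhesion molecule Epcam stayed between 13.18 and 13.82. The summed signal of 5 seminal vesicle genes was 16.46 to 17.27 in sham, 9.48 to 14.79 in BPH and 9.09 to 11.92 in BPH+ghrelin. That of 11 striated muscle genes was 11.88 to 12, 10.67 to 11.94 and 11.17 to 11.30, with Myh4 below background on all 9 arrays. That of 5 adipocyte genes was 11.97 to 13.48, 12.35 to 12.86 and 12.06 to 13.32, with Lep below background on all 9 arrays. The summed signals of the smooth muscle and macrophage lists separated BPH+ghrelin, on the lower side, from BPH. Of their genes, Myh11, Tagln, Mrc1 and Adgre1 did so too, while Acta2, Cnn1, Des, Smtn, Cd68 and Cd163 overlapped. Csf1r went the other way, with overlap, at 6.07 to 6.30 in BPH and 6.26 to 6.63 in BPH+ghrelin. The summed signal of 6 smooth muscle genes was 13.23 to 13.98 in sham, 13.36 to 14 in BPH and 12.94 to 13.25 in BPH+ghrelin, and that of 5 macrophage genes was 9.30 to 9.60, 9.34 to 9.71 and 9.10 to 9.24. That of 5 hepatocyte genes was 6.02 to 6.32, 5.32 to 6.93 and 5.81 to 5.84, with Alb and Fgb below background on all 9 arrays. Adipoq, the fat cell hormone adiponectin, was at 3.28 on sham replicate 1 and 0.58 on BPH+ghrelin replicate 1, and at 9.99 or more on the other 7 arrays. The part of these tissues in the levels of the members was not tested, and in whole tissue fewer cells of a type and less RNA per cell cannot be told apart.

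**Figure D1:**
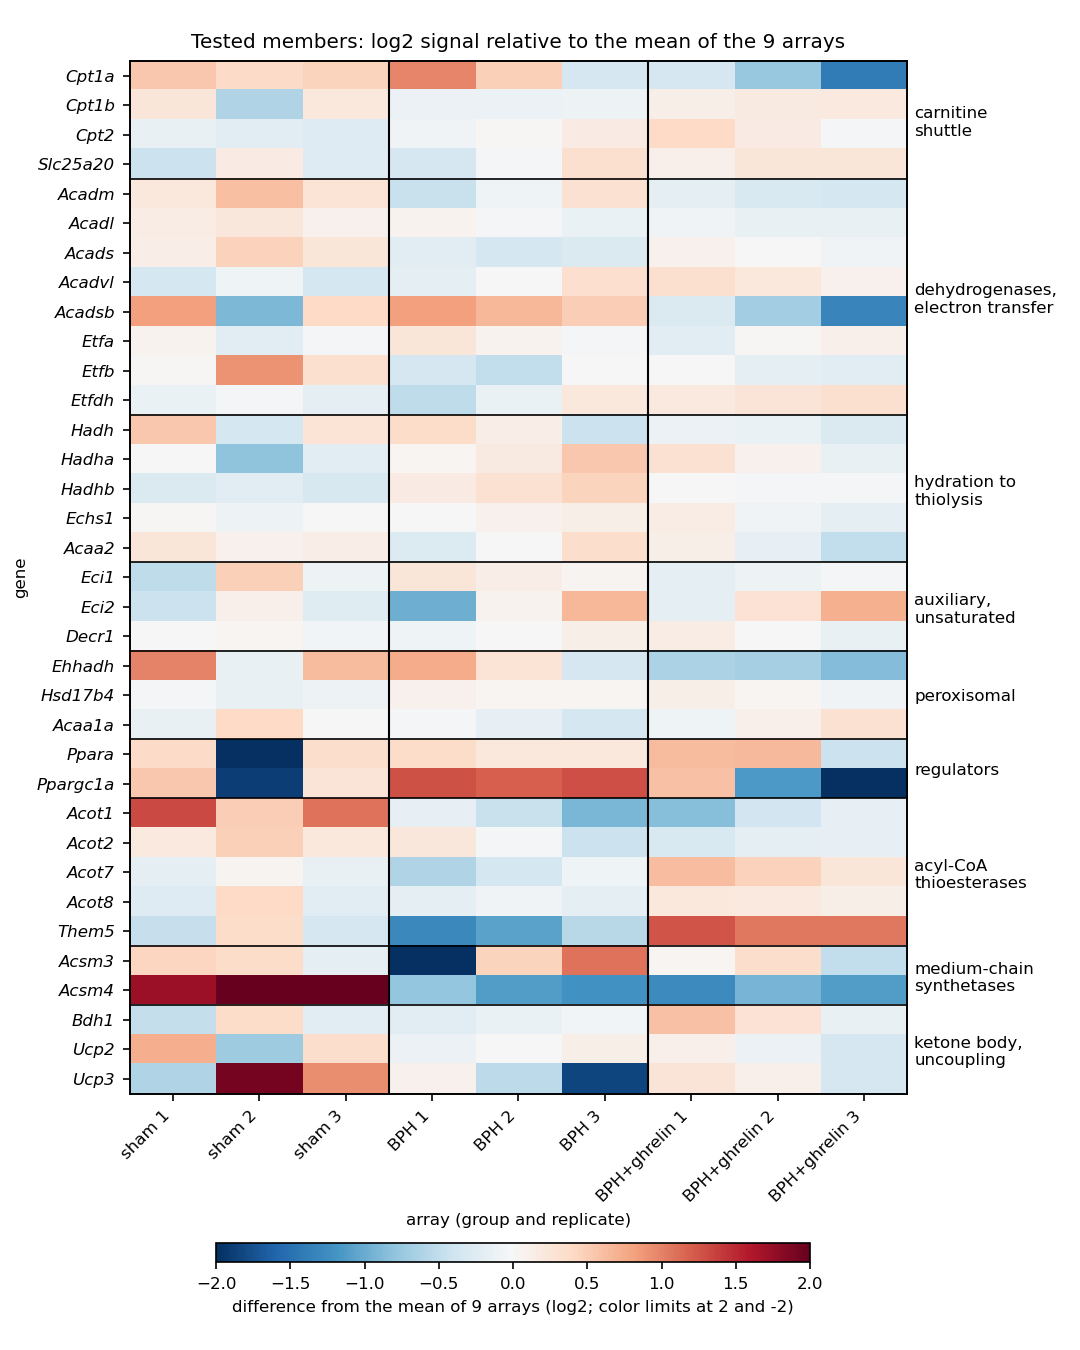
Log2 signal of the 35 tested members on each of the 9 arrays, as the difference from the mean of the 9 arrays (red above, blue below, color limits at 2 and -2), with genes grouped by role. Acsm4 and Acot1 are red in sham and blue in BPH and BPH+ghrelin, Them5 is red in BPH+ghrelin, and most other genes stay pale.

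In BPH+ghrelin compared to BPH, the question was what ghrelin added to the androgen-treated gland. Them5, a mitochondrial thioesterase, was the only member that passed the adjusted threshold, 4.27-fold higher with ghrelin, and that call was lost in 5 of 6 fits with 1 array left out. Its signal in BPH was above the background limit but close to it. Of 34 members tested, 1 passed the adjusted threshold (2.94%), compared to 1.48% of all 19749 genes tested (limma, Benjamini-Hochberg adjusted p under 0.05), of which 0.496% were higher and 0.987% lower. An unadjusted p under 0.05 was found for 8 members, 3 higher and 5 lower (23.5%, compared to 21.1% of all genes, 10.7% higher and 10.5% lower). The arrays of the groups did not overlap for 10 members (29.4%, compared to 39.2%). Both this and an unadjusted p under 0.05 were found for 7 of the 34 members tested (compared to 19.7% of all genes tested). Differences of at least 2-fold were found for 4 members, 1 higher and 3 lower (compared to 6.10% of all genes). The median difference over the members was 0.0038 on the log2 scale, compared to 0.015 over all genes, with 17 members on either side of 0. With 75th percentile scaling, 24 members lay above 0 and 10 below, with medians of 0.21 over the members and 0.095 over all genes.

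In BPH compared to sham, the question was what castration with dihydrotestosterone changed. Hadhb rose 1.49-fold, and Acot1 and Acads fell. With 1 array left out, Hadhb and Acot1 held in 3 of 6 fits and Acads in 1 of 6. These calls were lost with scan as a fixed block. Acsm4 was called lower as well, but it was bright enough to be tested through the sham arrays alone, so that a difference was built into its inclusion. Of 35 members tested, 4 passed the adjusted threshold (11.4%), compared to 4.33% of all 19552 genes tested (limma), of which 2.15% were higher and 2.18% lower. Acsm4 is among the 4, so that this share is raised by a gene whose difference was built in. It is in the other counts of this comparison as well. The unadjusted p was under 0.05 for 7 members, 2 higher and 5 lower (20%, compared to 26.5% of all genes, 14.4% higher and 12% lower). None of these 7 overlapped between groups, so that 20% of the members tested met both conditions, compared to 23.3% of all genes tested. In all, 11 members did not overlap (31.4%, compared to 31.3%), and 4 differed by at least 2-fold (compared to 8.16% of all genes). The median difference was -0.088, compared to 0.039 over all genes, and 21 of the 35 members were on the lower side.

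In BPH+ghrelin compared to sham, both treatments were set against the untreated gland. Acot1 fell and Them5 rose 2.41-fold, and Acsm4 was called lower, again tested through the sham arrays alone. With 1 array left out, Acot1 and Them5 each held in 2 of 6 fits. Of 33 members tested, 3 passed the adjusted threshold (9.09%), compared to 6.30% of all 19197 genes tested (limma), of which 3.00% were higher and 3.30% lower. Acsm4 is among the 3 and in the other counts here, which raises them in the same way. The unadjusted p was under 0.05 for 12 members, 4 higher and 8 lower (36.4%, compared to 23.7% of all genes, 13.6% higher and 10.2% lower). Again none of these 12 overlapped, so that 36.4% of the members tested met both conditions, compared to 21.8% of all genes tested. In all, 15 members did not overlap (45.5%, compared to 30.4%), and 5 differed by at least 2-fold, 1 higher and 4 lower (compared to 7.41% of all genes). The median difference was 0.0025, compared to 0.041 over all genes. Each group of arrays serves in 2 of the 3 comparisons, so that the comparisons are not independent of each other.

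**Figure D2:**
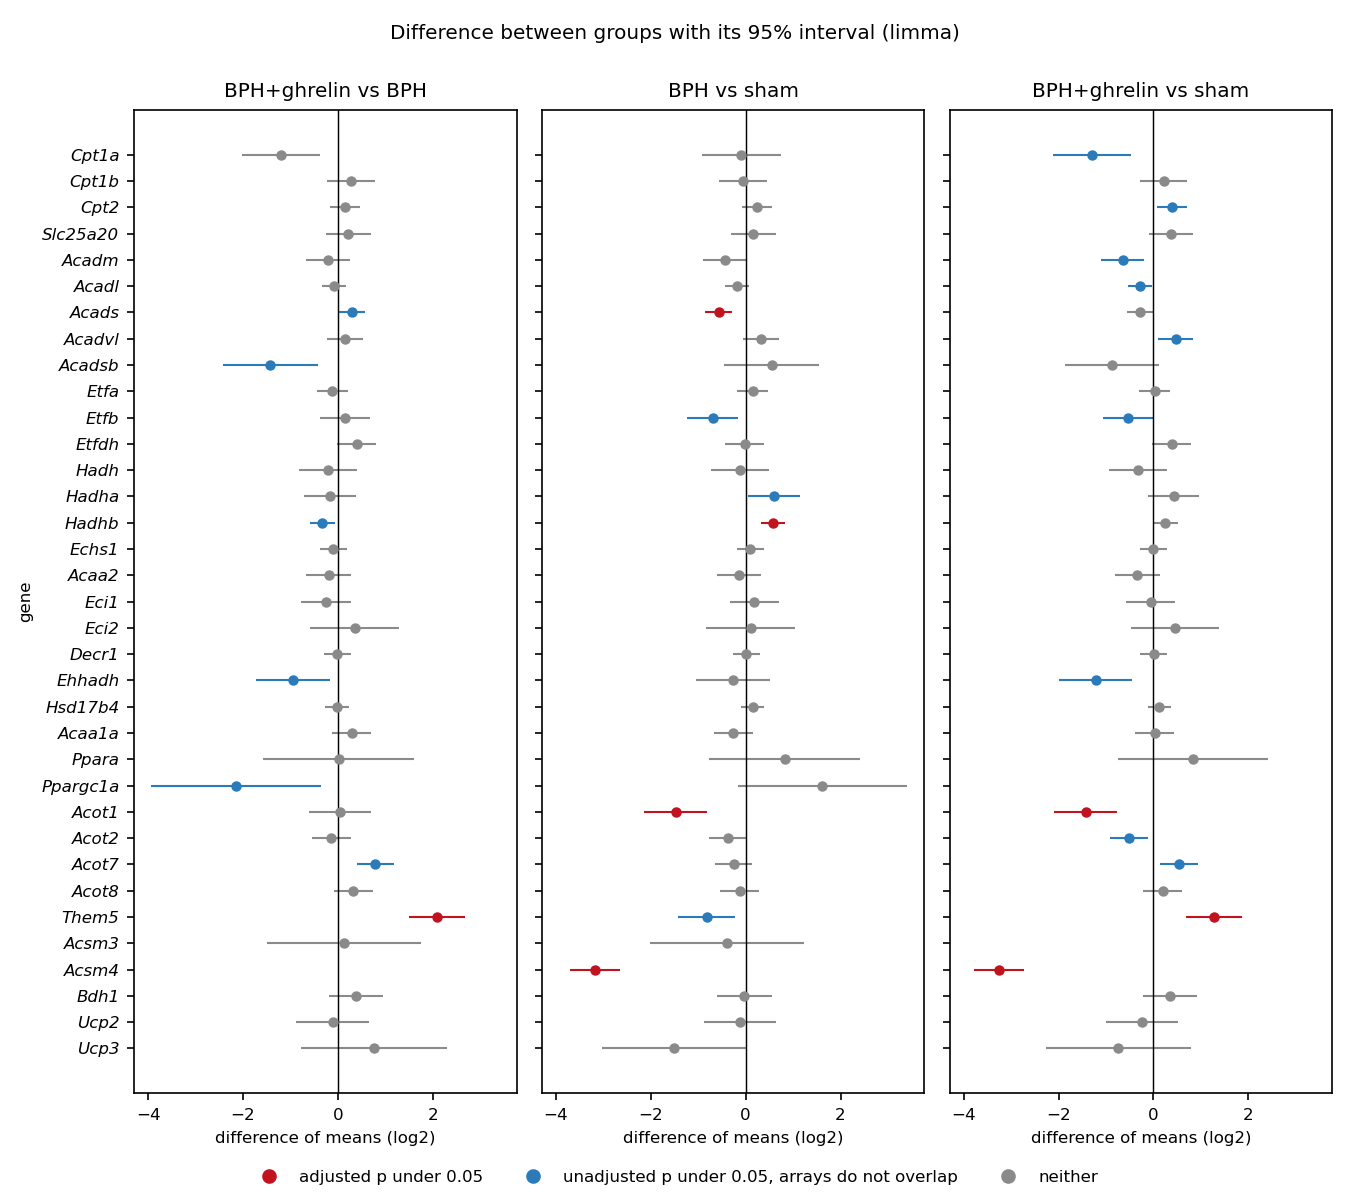
Difference of group means on the log2 scale for each tested member (points) with its 95% interval (limma), in 3 comparisons. Red marks an adjusted p under 0.05 and blue an unadjusted p under 0.05 without overlap of the arrays. Them5 lies at 2.09 against BPH, the points of Acsm4 against sham rest on signals below background in the treated groups and are not measured sizes, and most grey intervals cross 0.

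The carnitine shuttle had 4 members, of which 0 passed the adjusted threshold in any comparison. Cpt1a, the enzyme that commits long-chain fatty acids to mitochondrial oxidation, had log2 signals of 9.93, 9.77 and 9.84 in sham, 10.36, 9.86 and 9.04 in BPH, and 9.05, 8.62 and 7.99 in BPH+ghrelin. All 3 BPH+ghrelin arrays lay below the sham arrays, while the highest of them just exceeded the lowest BPH array. The difference was -1.29 against sham (SE 0.36, limma adjusted p 0.0727) and -1.21 against BPH (SE 0.36, adjusted p 0.123). Cpt2, which returns the fatty acid to CoA inside the mitochondrion, had 10.70, 10.63 and 10.59 in sham, 10.78, 10.87 and 11.01 in BPH, and 11.25, 11.01 and 10.83 in BPH+ghrelin. The BPH+ghrelin arrays lay above the sham arrays without overlap, by 0.39 (SE 0.14, adjusted p 0.135), or 0.26 between the arrays of scan 2. The outer-membrane enzyme of muscle, Cpt1b, and the carnitine carrier Slc25a20 differed by -0.06 to 0.37 between groups, with adjusted p of 0.315 to 0.879.

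Among acyl-CoA dehydrogenases, which take the first electrons from the chain, Acads was the only one that passed the adjusted threshold. Acads, the short-chain enzyme, had 10.26, 10.58 and 10.36 in sham, 9.90, 9.77 and 9.83 in BPH, and 10.21, 10.11 and 10.05 in BPH+ghrelin. BPH lay below both other groups without overlap, and BPH+ghrelin lay below sham. Acads fell by 0.57 from sham to BPH (SE 0.12, limma adjusted p 0.0455), and BPH+ghrelin was 0.29 above BPH (SE 0.13, adjusted p 0.235). With 1 array left out, the first difference stayed under the threshold only without sham replicate 1, and the adjusted p of the 6 fits ranged from 0.0261 to 0.196. With scan as a fixed block it was -0.71 (adjusted p 0.676).

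The chain-length relatives of Acads did not move as a block. Acadm, for medium chains, had 8.82, 9.21 and 8.88 in sham, 8.17, 8.53 and 8.91 in BPH, and 8.41, 8.30 and 8.26 in BPH+ghrelin, a difference of -0.65 between BPH+ghrelin and sham (SE 0.20, adjusted p 0.0945). Acadl, for long chains, had 13.68, 13.75 and 13.63 in sham, 13.61, 13.49 and 13.40 in BPH, and 13.46, 13.38 and 13.38 in BPH+ghrelin (-0.28 against sham, SE 0.11, adjusted p 0.166). Both were lower in all 3 BPH+ghrelin arrays than in all 3 sham arrays. Acadvl, for very long chains, lay on the other side of sham, with 10.13, 10.40 and 10.14 in sham, 10.31, 10.50 and 10.83 in BPH, and 10.82, 10.70 and 10.57 in BPH+ghrelin (0.47 against sham, SE 0.16, adjusted p 0.127). Acadsb, for short branched chains from amino acids, had 6.66, 4.94 and 6.23 in sham, 6.66, 6.49 and 6.32 in BPH, and 5.55, 5.14 and 4.52 in BPH+ghrelin. Its BPH+ghrelin arrays were below the BPH arrays without overlap (-1.42, SE 0.44, adjusted p 0.131), and the sham arrays spread over both. This difference was -0.59 with normexp, a background correction that here added 50 to every signal. That offset shrinks the differences of dim probes by construction. Between the arrays of scan 1, where BPH+ghrelin had replicate 1 alone, it was -0.95.

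The electrons are passed on by the flavoprotein subunits Etfa and Etfb and by Etfdh, which hands them to the respiratory chain. Etfb had 12.28, 13.15 and 12.58 in sham, 11.92, 11.76 and 12.24 in BPH, and 12.26, 12.07 and 12.05 in BPH+ghrelin. Sham was the highest group without overlap, by 0.70 against BPH (SE 0.23, adjusted p 0.115) and by 0.54 against BPH+ghrelin (SE 0.23, adjusted p 0.199). Without sham replicate 2 these were -0.46 and -0.30 (adjusted p 0.171 and 0.291), and without sham replicate 1 the first was -0.89 (adjusted p 0.0376). Its partner subunit Etfa stayed between 9.94 and 10.40 on all arrays, with differences of -0.12 to 0.15. Etfdh was at 10.00 to 10.14 in sham and 10.38 to 10.50 in BPH+ghrelin (0.38, SE 0.18, adjusted p 0.235).

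The trifunctional protein carries out hydration, dehydrogenation and thiolysis of long chains, and Hadhb is its thiolase subunit. Hadhb had 10.61, 10.66 and 10.57 in sham, 11.05, 11.19 and 11.33 in BPH, and 10.90, 10.85 and 10.84 in BPH+ghrelin. The 3 groups did not overlap, with sham lowest and BPH highest. Hadhb rose by 0.58 from sham to BPH (SE 0.11, limma adjusted p 0.0349), BPH+ghrelin was 0.33 below BPH (SE 0.11, adjusted p 0.165), and BPH+ghrelin was 0.25 above sham (SE 0.11, adjusted p 0.224). The rise was lost without BPH replicate 2, BPH replicate 3 or sham replicate 3, with an adjusted p of up to 0.165. With scan as a fixed block it was 0.51 (adjusted p 0.795). The difference between BPH+ghrelin and BPH was -0.16 with 75th percentile scaling (limma adjusted p 0.477).

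Hadha, the partner subunit that shares the promoter region with Hadhb, had 8.99, 8.19 and 8.80 in sham, 9.04, 9.18 and 9.55 in BPH, and 9.31, 9.09 and 8.86 in BPH+ghrelin. BPH lay above sham without overlap, though by a narrow gap, with a difference of 0.60 (SE 0.24, adjusted p 0.161). The second probe of Hadha gave 0.90 for the same difference, which was 0.37 without sham replicate 2 (adjusted p 0.295) and 0.34 with scan as a fixed block (adjusted p 0.985). Of the other enzymes of this step, the short-chain dehydrogenase Hadh, the hydratase Echs1 and the thiolase Acaa2, 0 of 3 had an unadjusted p under 0.05. Their differences between groups were -0.34 to 0.10.

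Fatty acids with double bonds need the isomerases Eci1 and Eci2 and the reductase Decr1. Their differences were -0.24 to 0.46, with adjusted p of 0.543 or more. Decr1 differed little between groups, at a mean of 11.92 (SD 0.05) in sham, 11.93 (SD 0.10) in BPH and 11.92 (SD 0.15) in BPH+ghrelin. Eci2 spread widely within BPH, from 11.46 to 13.11.

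Among peroxisomal enzymes, Ehhadh, which combines hydratase and dehydrogenase in 1 chain, had 6.62, 5.48 and 6.26 in sham, 6.36, 5.91 and 5.29 in BPH, and 5.00, 4.96 and 4.76 in BPH+ghrelin. The BPH+ghrelin arrays were the lowest and overlapped with neither other group. The difference was -0.95 against BPH (SE 0.34, limma adjusted p 0.171) and -1.21 against sham (SE 0.34, adjusted p 0.0731). Without sham replicate 2 the latter passed, at -1.53 and an adjusted p of 0.0241. With normexp the differences were -0.27 and -0.43 (adjusted p 0.234 and 0.0701). Hsd17b4, the multifunctional enzyme for branched substrates, and the thiolase Acaa1a differed by -0.26 to 0.29. The second probe of Acaa1a gave -0.25 between BPH and sham and 0.20 between BPH+ghrelin and BPH. The oxidases Acox2 and Acox3 were not well above background on any array.

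Of the regulators, Ppargc1a, a coactivator of mitochondrial genes, was near the background limit, with 4.09, 4.02 and 4.11 in BPH and 3.41, 1.68 and 0.70 in BPH+ghrelin. In sham it had 3.36, 0.94 and 3.08. It exceeded the background limit in 3 of 3 arrays of BPH, 1 of 3 of BPH+ghrelin and 1 of 3 of sham. The difference of -2.15 between BPH+ghrelin and BPH (SE 0.78, adjusted p 0.174) rests on 2 BPH+ghrelin signals below the limit and is not a measured size, although it stands among the counts above. It was -0.66 between the arrays of scan 1, where BPH+ghrelin had 1 array. Ppara, the nuclear receptor that switches on many genes of fatty acid oxidation, lay between 2.55 and 3.62 on all arrays but sham replicate 2 (0.59), and differed by 0.02 to 0.84 (adjusted p 0.465 to 0.991).

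The acyl-CoA thioesterases held 2 of the 5 members that passed the adjusted threshold in any comparison. Them5, which acts on long-chain acyl-CoA in mitochondria and has been tied to cardiolipin remodelling, had 4.13, 4.95 and 4.25 in sham, 3.30, 3.53 and 4.03 in BPH, and 5.85, 5.64 and 5.64 in BPH+ghrelin. The 3 groups did not overlap, with BPH lowest and BPH+ghrelin highest. The rise from BPH to BPH+ghrelin was 2.09 (SE 0.26, limma adjusted p 0.0180), and that from sham to BPH+ghrelin was 1.27 (SE 0.26, adjusted p 0.0293). Them5 was 0.82 below sham in BPH (SE 0.26, adjusted p 0.102). Its probe was well above background on all 9 arrays but dim in BPH. The lowest signals well above background on BPH replicates 1 to 3 were 2.60, 2.40 and 2.72.

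The study took Them5 forward from these same arrays, so that its rise here is not independent evidence. With 1 array left out, the call against BPH held only without BPH replicate 3 (adjusted p 0.0222) and was lost without each of the other 5 arrays (up to 0.133), while the difference stayed between 1.93 and 2.30. Within scan 1, which held 1 BPH+ghrelin array, it was 2.23, and scan as a fixed block gave the same difference (limma adjusted p 0.223). With normexp, whose offset shrinks the differences of dim probes, it was 0.47 (limma adjusted p 0.0376). Against sham the call held only without sham replicate 1 or sham replicate 2, with an adjusted p of up to 0.119 otherwise, and the difference was 1.102 between the arrays of scan 2 and 0.33 with normexp (adjusted p 0.0608). Them4, the neighbour of Them5 on chromosome 2, was not well above background on any array.

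Acot1, a cytosolic enzyme that cuts long-chain acyl-CoA, had 7.11, 6.29 and 6.88 in sham, 5.63, 5.35 and 4.88 in BPH, and 4.95, 5.41 and 5.64 in BPH+ghrelin. Both treated groups lay below sham without overlap, and they overlapped with each other. Acot1 fell by 1.48 from sham to BPH (2.78-fold, SE 0.29, limma adjusted p 0.0333) and by 1.43 from sham to BPH+ghrelin (2.70-fold, SE 0.29, adjusted p 0.0284), and BPH+ghrelin differed from BPH by 0.05 (95% interval -0.61 to 0.71). The first call was lost without BPH replicate 2, BPH replicate 3 or sham replicate 3 (adjusted p up to 0.136). The other was lost without any of the BPH+ghrelin arrays or without sham replicate 3 (up to 0.112), and it was -1.18 between the arrays of scan 2. With scan as a fixed block the adjusted p was 0.885 (difference -0.84) and 0.257, and with normexp both differences passed at -0.69 and -0.68.

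Acot2 is the mitochondrial relative of Acot1 and its neighbour on chromosome 6. It had 10.75, 11.02 and 10.77 in sham, 10.78, 10.51 and 10.13 in BPH, and 10.25, 10.36 and 10.39 in BPH+ghrelin, a difference of -0.51 between BPH+ghrelin and sham (SE 0.18, adjusted p 0.125). A second, dimmer probe of Acot2, below background on sham replicate 2, gave 0.88 for this difference, of the opposite sign. Genes of this family are near-identical copies, and hybridization between Acot1 and Acot2 was not tested.

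Acot7, a cytosolic enzyme best known from brain, had 10.92, 11.19 and 10.98 in sham, 10.52, 10.77 and 11.05 in BPH, and 11.75, 11.59 and 11.37 in BPH+ghrelin. BPH+ghrelin lay above both other groups without overlap. The difference was 0.79 against BPH (SE 0.17, limma adjusted p 0.0669) and 0.54 against sham (SE 0.17, adjusted p 0.105). Without BPH replicate 3 the first passed, at 0.0484. Acot8, the peroxisomal thioesterase, was at 10.98 to 11.07 in BPH+ghrelin and 10.67 to 10.79 in BPH (0.32, SE 0.18, adjusted p 0.337).

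**Figure D3:**
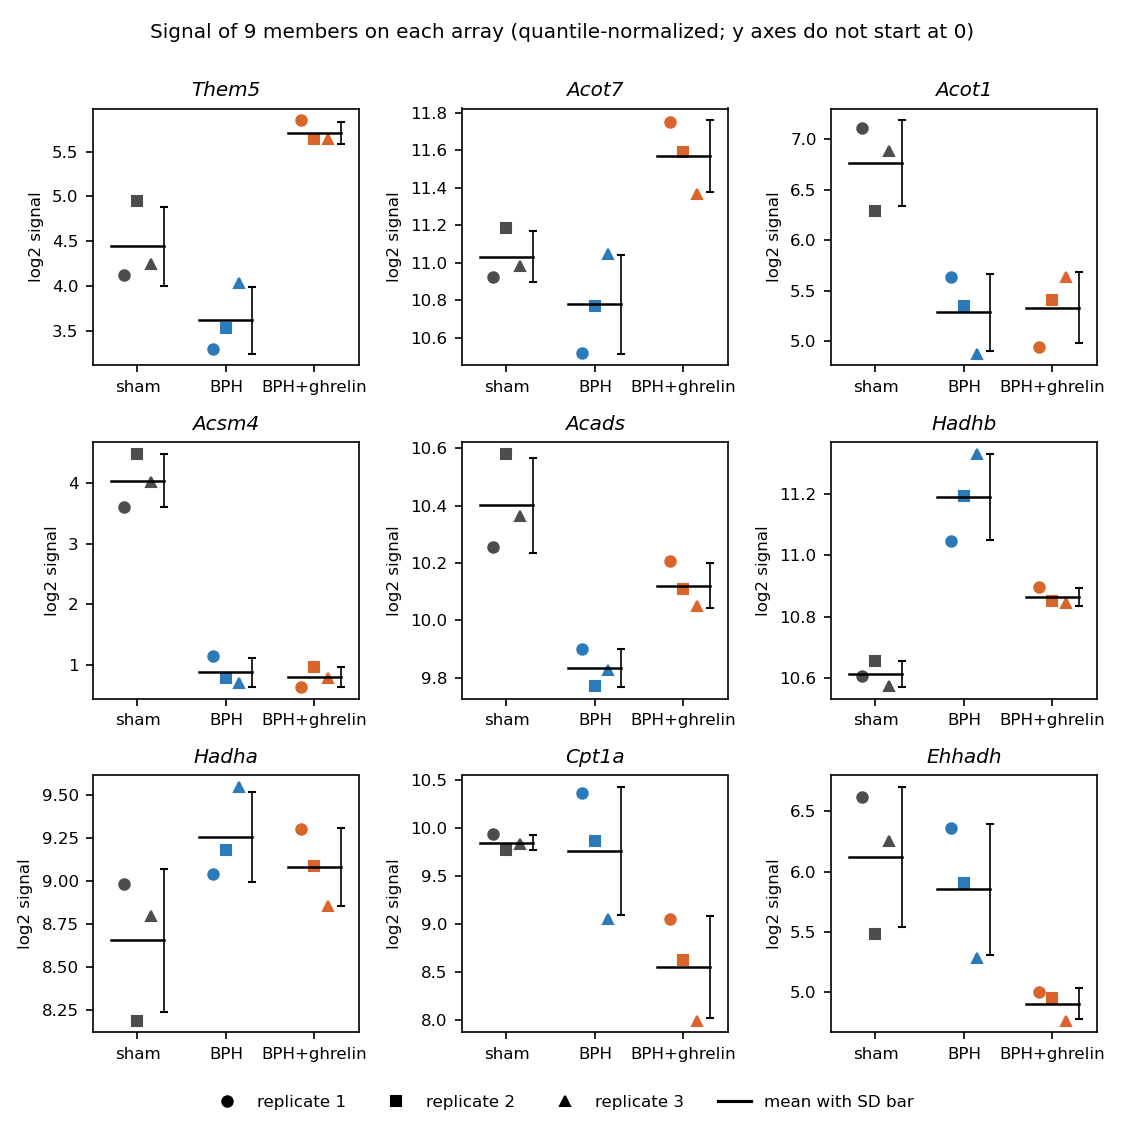
Log2 signal of 9 members on each array, with points for replicates 1 to 3, lines for group means and bars for the SD (n = 3). Acsm4 and Acot1 are high in sham alone, Them5 is highest at 5.64 to 5.85 in BPH+ghrelin, and Hadhb is highest at 11.05 to 11.33 in BPH.

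Acsm4, a mitochondrial synthetase that activates medium-chain fatty acids and is known from olfactory mucosa, was detected in sham alone. Its log2 signal was 3.62, 4.49 and 4.02 in sham, 1.14, 0.78 and 0.70 in BPH, and 0.63, 0.97 and 0.78 in BPH+ghrelin. It was well above background on 3 of 3 sham arrays and on 0 of 3 arrays of each treated group, so that a bound is given: at least 2.77-fold lower in BPH (limma adjusted p 0.00098) and at least 2.53-fold lower in BPH+ghrelin (adjusted p 0.000469) than in sham. Since it passed the filter through the sham arrays alone, these p-values lend it no further support. With normexp background correction, the fitted differences were -0.22 (adjusted p 0.112) and -0.28 (adjusted p 0.0544), and in the matrix of the authors they were -1.68 for both (limma adjusted p 0.00479 and 0.00353). With scan as a fixed block, the difference between BPH and sham was -2.94 (adjusted p 0.295).

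Acsm3 was well above background on 4 of 9 arrays, and its differences of -0.38 between BPH and sham and 0.14 between BPH+ghrelin and BPH had adjusted p of 0.748 and 0.929. Acsm5 was below background on all arrays with both of its probes. In the remaining group, the ketone body enzyme Bdh1 and the uncoupling protein Ucp2 differed by -0.24 to 0.38. Ucp3, an uncoupling protein of muscle and brown fat, had 6.79, 9.31 and 8.32 in sham, 7.48, 6.87 and 5.55 in BPH and 7.64, 7.49 and 7.05 in BPH+ghrelin, and its range within sham and within BPH was wider than the difference of -1.51 between them (SE 0.67, adjusted p 0.194). Pdk4, which shuts glucose carbon out of the citrate cycle, was not well above background on any array, and the fatty acid binding protein Fabp3 was so on 1 of 9.

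A wider list of 74 genes of fatty acid uptake, activation, peroxisomal import and related steps, of which 70 had a matched probe, was read in the same fit, with 62 tested in each comparison. In BPH+ghrelin compared to BPH, 0 rose and 1 fell (1.61%, compared to 1.48% of all genes). Crot, which makes the carnitine esters that leave the peroxisome, had 14.36, 14.32 and 14.30 in BPH and 13.22, 13.48 and 13.70 in BPH+ghrelin, a fall by 0.86 (SE 0.15, limma adjusted p 0.0390). The groups did not overlap, and the adjusted p was 0.0556 to 0.204 with 1 array left out, so that the call was lost in each of the 6 fits. With 75th percentile scaling the difference was -0.40. The median over the list was -0.011.

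Between BPH and sham, 1 gene of the wider list rose and 2 fell (4.84%, compared to 4.33% of all genes), and the median was 0.13. The peroxisomal reductase Decr2 rose by 1.04 (SE 0.19, adjusted p 0.0303), and by 0.40 to 1.09 over 11 alternative settings of the fit. Its arrays were at 5.43, 4.66 and 5.17 in sham, 6.03, 6.09 and 6.25 in BPH and 5.58, 5.48 and 5.40 in BPH+ghrelin. Echdc2, a mitochondrial protein of the hydratase family, fell by 0.68 (SE 0.12, limma adjusted p 0.0260), from 11.35 to 11.45 in sham down to 10.58 to 10.88 in BPH, and stood at 11.13 to 11.28 in BPH+ghrelin. With 1 array left out, Decr2 held in 2 of 6 fits and Echdc2 in 3 of 6, and both were lost without BPH replicate 2, BPH replicate 3 or sham replicate 3 (adjusted p up to 0.141). Decr2 was also lost without BPH replicate 1 (0.0544). Both were lost with scan as a fixed block, with the replicate block and with only the 6 arrays compared. In these fits the limma adjusted p was up to 0.747 for Decr2 and 0.648 for Echdc2.

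Between BPH+ghrelin and sham, 0 genes of the wider list rose and 5 fell (8.06%, compared to 6.30% of all genes, 3.30% lower), with a median of 0.034. The carnitine transporter Slc22a5, which brings carnitine into the cell, fell by 2.12 (SE 0.33, limma adjusted p 0.0122), with 11.11, 9.65 and 10.74 in sham, 9.68, 9.43 and 9.39 in BPH, and 8.41, 8.36 and 8.37 in BPH+ghrelin. Acss1, which activates acetate in mitochondria, fell by 1.25 (SE 0.21, adjusted p 0.0155). Hacl1, which shortens branched chains by 1 carbon, fell by 0.72 (SE 0.17, adjusted p 0.0464), and Pex5, the import receptor of peroxisomes, fell by 0.50 (SE 0.10, adjusted p 0.0287). Slc22a5 held in 4 of 6 fits and was lost without BPH+ghrelin replicate 2 or sham replicate 3 (adjusted p up to 0.0642). Acss1 and Pex5 held in 2 of 6, without sham replicate 1 or sham replicate 2, and Hacl1 in 1 of 6, without sham replicate 1, with adjusted p of up to 0.0736, 0.137 and 0.163 otherwise. With the mean of its probes, the difference of Pex5 was -0.21 (adjusted p 0.707).

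**Figure D4:**
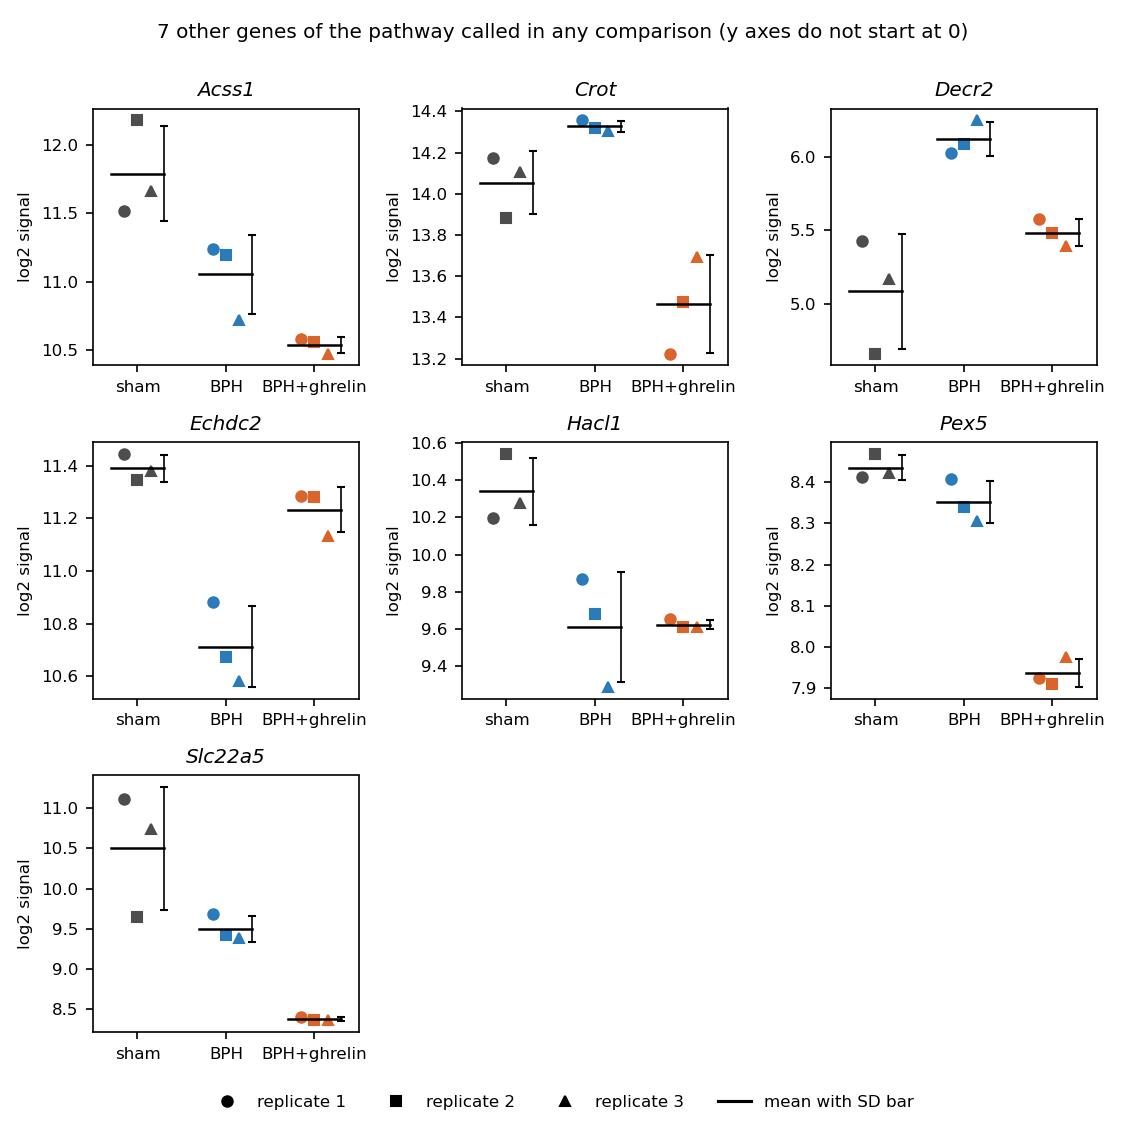
Log2 signal of 7 genes of the wider list that passed the adjusted threshold in any comparison, with points for replicates 1 to 3, lines for group means and bars for the SD (n = 3). Slc22a5 is lowest in BPH+ghrelin at 8.36 to 8.41 without overlap, and Crot is lowest in BPH+ghrelin at 13.22 to 13.70.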

How the data were processed

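Total RNA of 9 rat prostates was amplified, labelled with Cy3 and hybridized to 44254-spot Agilent arrays. The intensity values deposited by the authors come from Feature Extraction 11.0.1.1, per the file headers, which subtracted background and spatial trends on a linear scale, with no scaling between arrays. Their deposited value matrix, in log2 after quantile normalization in GeneSpring, was used as an alternative only. Group and replicate were taken from the sample labels, and the labels do not say which animal gave each array, so that p-values measure the spread between these arrays. The number of arrays limits the precision.

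Outlier spots were removed and spots of a probe averaged (11 of 30367 probes lost). Log2 values were quantile normalized over 9 arrays and fitted with limma 3.58.1 in R 4.3.3 (3 group means, eBayes), with Benjamini-Hochberg adjustment over all genes tested. A gene was tested if any probe exceeded the background limit of Feature Extraction in 3 or more of the 6 arrays, and was represented by its brightest such probe. Probe accessions were matched to RefSeq names of GRCr8 (17998 probes), and the array annotation is of rn4, so no probe coordinates are given. Signal over background gave bounds as "at least" folds, against the lowest signal well above background. The smallest p of an exact two-sided permutation test is 0.1 with 3 arrays per group.

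Members with an adjusted p under 0.05, or an unadjusted p under 0.05 without overlap, are given array by array, and genes of the wider list where the adjusted p was under 0.05 (up to 5 per direction). Members, lists, markers and rules were chosen with earlier results of these data known. Alternatives were other scaling, background correction, filters, probes, blocks, the deposited matrix, variance models and leaving out arrays. The normexp background correction added 50 to every signal. A gene of the wider list is counted in its totals but is not reported here by name.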

Additional observations from a re-analysis of the deposited data

How the results depend on the processing

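Counts of members called in BPH+ghrelin against BPH, BPH against sham and BPH+ghrelin against sham were 1, 4 and 3, and those of the wider list 1, 3 and 5. Acsm4 is among the 4 and among the 3. With 1 array left out in turn, the members called were 0 to 2, 1 to 6 and 1 to 6, the wider list 0 to 1, 0 to 8 and 1 to 6, and the median difference of the members -0.049 to 0.044, -0.12 to 0.011 and -0.050 to 0.018. With 75th percentile scaling, 2 members in each of the first and second comparison and 2 genes of the wider list in the first were called, with medians of 0.21 and -0.14. That scaling moved the median of all genes from 0.039 to -0.087 between BPH and sham, where 0 members were then called higher and 2 lower (1 and 3 before), and the share of higher calls over all genes from 33.4% to 47.2% in the first comparison and from 49.7% to 32.0% in the second. With normexp, 2 members and 4 genes of the wider list were called in the first comparison, where 45% of all calls were higher, and the median between BPH and sham was -0.044. Without a filter on dim probes, 0 genes of the wider list were called in the first comparison and 1 member in the second, and the median of the third was -0.13. With only the 6 arrays compared, 3 members and 6 other genes were called in the first comparison and 1 and 0 in the second, while the calls over all genes went from 293 to 2101 and from 847 to 181. With the mean of its probes, the difference of Acot2 between BPH+ghrelin and sham reversed to 0.19 (adjusted p 0.811). The offset of normexp by itself shrinks the differences of dim probes. Other causes were not tested.

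Same-numbered arrays did not deviate together (correlations -0.16 to 0.29), so that the replicate numbers do not pair the arrays. With the replicate block, 0, 1 and 1 members and 0, 0 and 3 genes of the wider list were called (17, 243 and 461 of all genes). With scan as a fixed block, 0, 0 and 1 members and 0, 0 and 0 other genes were called (2, 2 and 84 of all genes), with medians of 0.10 and -0.28 in the first and second comparison, and 0.10 within scan 1. With scan as a random block (correlation -0.21 to -0.22), 5 members and 11 other genes were called in the first comparison and 13 and 21 in the second, with a median of -0.047, while the calls over all genes went to 1830 and 7088. The outer arrays of each group alone, a setting chosen after seeing the data as were all settings for the wider list, gave 0, 0 and 0 members and 0, 0 and 0 other genes. That setting widens the spread within groups by construction. The deposited matrix, the filter on all 6 arrays, and eBayes with trend and robust moved no count of members called by over 1.5 times. Depth of signal limits Acsm4, Ppargc1a, Ppara and Acsm3, which were below background on some arrays. Them5 was above background on all arrays but dim in BPH.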
